A study of Mus musculus with 4 samples.

Results

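Mt1 and Mt2 are the metallothionein genes of mouse liver measured here on Affymetrix MG_U74Av2 arrays. The members were taken as the probe sets that the array's annotation assigns to either gene, which gave 1 probe set for each gene, 93573_at for Mt1 and 101561_at for Mt2. They are 2 of 8251 genes named on the array and 2 of 5510 genes bright enough to test. The pair was chosen on its signals in these same arrays, namely the rise from control to null liver, so those signals are given as a description with no test.

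The study compared livers of control mice with livers of hepatic reductase null mice, with 2 arrays each, numbered 7 and 8 in both groups. Hepatic reductase null is read here as the mouse line without P450 oxidoreductase (Por), the flavoprotein that supplies microsomal P450 enzymes with electrons. As background, that line carries a floxed Por and a Cre recombinase driven by the albumin promoter, so that hepatocytes lose the gene and other liver cells keep it. No probe set is annotated to Por in the table used here, so the labels were not checked against it. The labels give no strain, sex, age or treatment of the mice for either group. They describe RNA pooled from 3 animals per genotype in each experiment, but the control titles name a mouse, so the replicate may be a pool of animals or 1 mouse. P-values therefore measure only the spread between these 4 arrays, whose number limits the precision. Null array 7 stood apart from the other 3 in its signals of pancreatic acinar genes, so the differences of Mt1 and Mt2 are also given without it. In bulk tissue, a change in the share of a cell type and a change in RNA per cell cannot be told apart.

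Metallothioneins are small, cysteine-rich proteins that bind zinc and copper and can take up cadmium. In liver, Mt1 and Mt2 are transcribed when the zinc-sensing factor MTF1 binds metal response elements in their promoters, and they are also induced by glucocorticoids, by interleukin 6 acting through STAT3 and by oxidative stress. They buffer free zinc and react with oxidants, whereas Mt3 is known chiefly from brain and Mt4 from stratified epithelium.

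Both promoters hold the core of the metal response element, and they are shown because both genes had higher signals in null liver. The 250 bases before the annotated start are printed 5′ to 3′ on the plus strand from RefSeq, build GRCm38.p6, with matches to TGCACNC or TGCGCNC on either strand in capitals. The Mt1 stretch is chr8:94178839-94179088 and the Mt2 stretch is chr8:94172368-94172617.
Mt1: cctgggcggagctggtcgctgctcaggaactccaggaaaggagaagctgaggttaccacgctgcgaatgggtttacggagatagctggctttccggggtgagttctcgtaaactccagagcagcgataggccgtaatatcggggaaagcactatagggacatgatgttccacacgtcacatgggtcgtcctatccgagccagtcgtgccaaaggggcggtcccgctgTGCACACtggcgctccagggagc
Mt2: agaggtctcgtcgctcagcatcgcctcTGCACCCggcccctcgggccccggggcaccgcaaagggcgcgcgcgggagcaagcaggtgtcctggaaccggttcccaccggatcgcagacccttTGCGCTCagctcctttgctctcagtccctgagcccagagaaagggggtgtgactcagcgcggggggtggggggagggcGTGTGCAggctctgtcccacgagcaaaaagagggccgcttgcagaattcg

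In the whole window of 300 bases, from 250 before to 50 after the annotated start, Mt1 held 3 matches and Mt2 held 4. The Mt1 matches read TGCACAC, from base -23, and TGCACTC and TGCGCTC, from bases 3 and 21 after the annotated start. In Mt2 TGCACCC began at base -223 and TGCGCTC at -128, and GTGTGCA at -50 and GTGCGCA at base 5 are matches on the opposite strand. Of 32851 promoter windows of this length, 25.7% held at least 1 match, 1.97% at least 3 and 0.517% at least 4. Mt2 also held 1 match to TGACNNNGC, the core of the antioxidant response element, reading TGACTCAGC from base -79, and Mt1 held 0. This core occurred in 12.4% of the windows, and it did not overlap a metal response element core in Mt2. A match is a run of letters and does not show binding, and whether the annotated start is the one used in these livers was not tested. Were another start used, the positions and the number of matches in each window could differ. Matches placed after the annotated start could then lie before the start in use. The family members Mt3 and Mt4 held 1 metal response element core each. The window of Slc30a1, the zinc exporter that MTF1 also controls, held 2, and that of Mtf1 itself held 0.

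**Figure D1:**
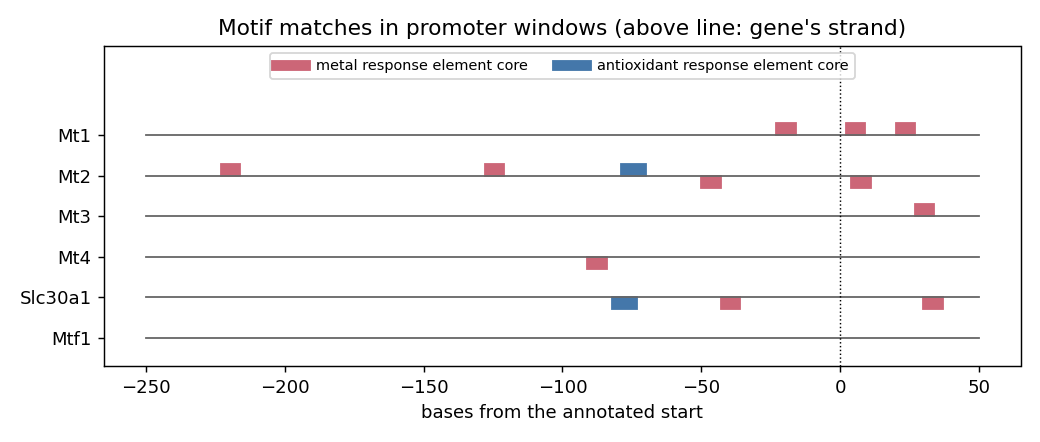
Matches to 2 motif cores in promoter windows of 6 genes, plotted by distance in bases from the annotated start; boxes above a line lie on the gene's strand and boxes below it on the opposite strand. Mt1 has 3 matches to the metal response element core and Mt2 has 4, against 1 each in Mt3 and Mt4.

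Both genes were higher in null liver, Mt2 by 7.40-fold and Mt1 by 5.19-fold. The deposited signal of Mt1, on a linear scale, was 185.3 on control array 7 and 108 on control array 8, and 733.7 and 735.8 on null arrays 7 and 8. Both null arrays stood above both control arrays, and the null arrays nearly coincided. The signal of Mt2 was 90.7 and 126.6 on control arrays 7 and 8, and 739.1 and 849.6 on null arrays 7 and 8. Again no null array overlapped a control array. The group means were 147 ± 54.7 and 735 ± 1.48 for Mt1 and 109 ± 25.4 and 794 ± 78.1 for Mt2, for control and null liver in that order (SD, n = 2 each). On the log2 scale the differences were 2.38 for Mt1 and 2.89 for Mt2.

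Comparing any null array with any control array gave ratios of 3.96 to 6.81 for Mt1 and of 5.84 to 9.37 for Mt2. The dimmest control signal was 15.2 times the floor of 7.1 for Mt1 and 12.8 times the floor for Mt2, so neither fold was set by the floor applied to dim signals. Ranked by log2 difference among 5510 genes, Mt2 was 6th and Mt1 was 9th. The genes above Mt1 other than Mt2 were Cyp2b10, Lcn2, Reg1, Mmp12, Prss2, Ubd and Traf5, each with at least 1 control signal below 20. For comparison, 1151 of the 5510 genes (20.9%) had both null arrays above both control arrays and 1323 (24.0%) had both below. At an adjusted p under 0.05 by limma, a linear model fitted across all probe sets, 17 genes (0.309%) were higher, Mt1 and Mt2 among them, and 5 (0.0907%) were lower. Counted by probe set these were 22 (0.304%) and 6 (0.0829%) of 7241, and both fell to 0 in limma when dim probe sets were kept (566 higher and 642 lower at an unadjusted p under 0.05). Nothing is read from the pair's place in these counts, since this contrast chose them.

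**Figure D2:**
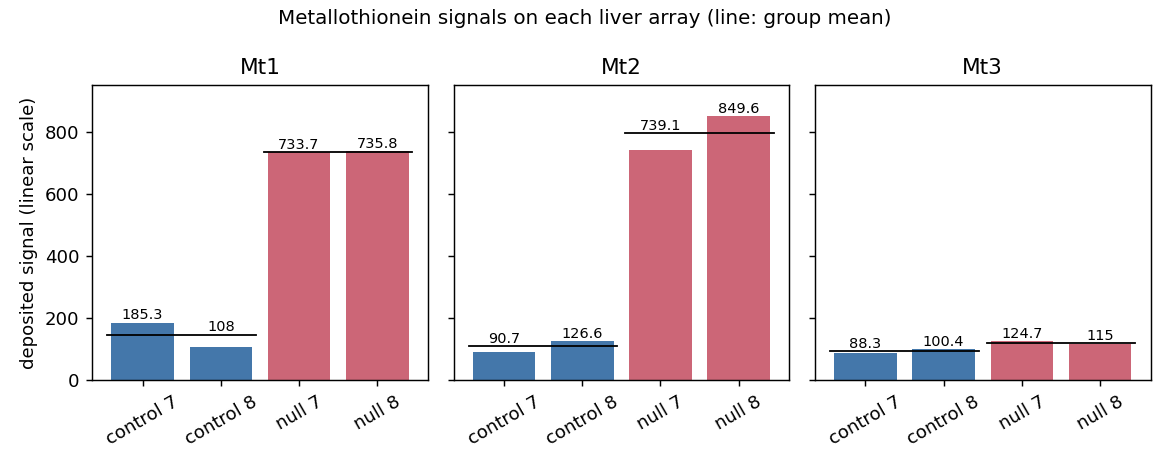
Deposited signal (linear scale) of Mt1, Mt2 and Mt3 on each of the 4 arrays, with a line at the group mean. The null bars of Mt1 and Mt2 lie between 733.7 and 849.6, above the control bars at 90.7 to 185.3, whereas the Mt3 bars run from 88.3 to 124.7.

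**Figure D3:**
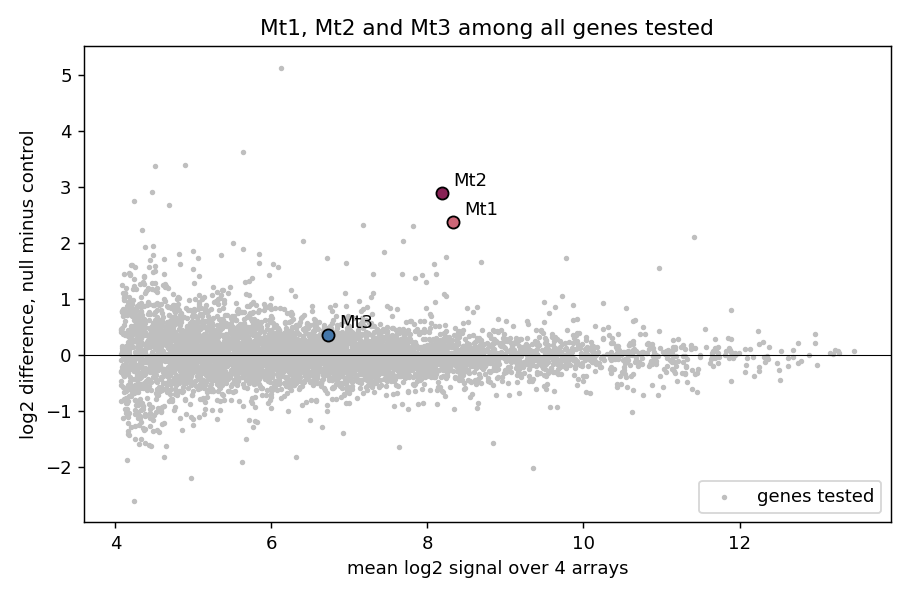
Log2 difference, null minus control, of 5510 genes against their mean log2 signal over the 4 arrays. Mt2 at 2.89 and Mt1 at 2.38 lie above most genes of like signal, and Mt3 lies at 0.35 inside the cloud.

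The control arrays differed from each other in opposite directions for the 2 genes. Mt1 was 1.72-fold higher on control array 7 than on control array 8, while Mt2 was 1.40-fold higher on control array 8 than on 7. These gaps were 0.78 and 0.48 on the log2 scale. They are set beside genes of like mean log2 signal over all 4 arrays, a mean between the pair's control and null signals. Such genes were thus mostly brighter than the pair in control liver and dimmer in null liver. The shares below therefore do not compare genes of like signal within a group. Among 593 genes within 0.5 of this mean for Mt1, the median gap between the control arrays was 0.12 and 0.675% had a wider gap than Mt1. Among 641 genes within 0.5 of this mean for Mt2, the median was 0.13 and 5.62% had a wider gap. On the null arrays the gap was 0.00412 for Mt1, where 98.0% of the 593 genes were wider apart, and 0.201 for Mt2, where 36.3% of the 641 were wider.

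The ratio of the Mt2 signal to the Mt1 signal within an array shows whether the genes moved by the same factor, although the probe sets' own brightness sets its level. Its log2 was -1.03 on control array 7, 0.23 on control array 8, 0.01 on null array 7 and 0.21 on null array 8. Both null values lay between the control values, and control array 7 stood apart. The mean rose by 0.51, less than the SD of 0.89 between the control arrays, so the larger rise of Mt2 was not separable from the spread between controls. Without control array 7 the log2 differences were 2.77 for Mt1 and 2.65 for Mt2, in the reverse order. With 2 arrays against 2, an exact permutation test cannot give a two-sided p below 0.333. The probes of the pair could bind each other's transcript, which was not tested here.

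Of the other family members, Mt3 was measured above the filter and Mt4 was not. Mt3, the form known from brain, had signals of 88.3 and 100.4 in control and 124.7 and 115 in null liver. Its control signals lay near those of Mt2 (90.7 and 126.6). Whether the Mt3 probes also bind Mt1 or Mt2 transcript was not tested. The null arrays were higher without overlap, but the log2 difference of 0.35 ± 0.17 (SE) did not pass in limma (adjusted p = 0.458). Mt4 lay at 3.1 to 7.3 on all 4 arrays, near or below the floor, and was not tested.

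Mt1 and Mt2 lie side by side on chromosome 8 with no annotated gene between them, and Mt3 and Mt4 lie on the same side of Mt2. Of the 12 nearest genes with a probe set, Mt3 and Mt4 included, 10 were tested and 0 passed in limma (1 higher at an unadjusted p under 0.05). That gene was the chemokine Ccl22, which had 11.6 and 14.1 in control and 32.9 and 34.1 in null liver, a log2 difference of 1.39 ± 0.42 (SE, adjusted p = 0.252). Nearer to Mt1, the nuclear pore gene Nup93 was at -0.02 ± 0.42 and Herpud1, a gene of endoplasmic reticulum stress, at -0.22 ± 0.09. Beyond Mt4, the cleavage factor gene Nudt21 was at 0.06 ± 0.25, the G protein gene Gnao1 at -0.83 ± 0.49 (-1.49 and -0.89 on other probe sets) and the carboxylesterases Ces1g and Ces1d at 0.39 ± 0.17 and 0.03 ± 0.14. The Gnao1 probe set at -1.49, not the brightest of that gene, was also lower in limma at an unadjusted p under 0.05 (adjusted p = 0.335). The remaining tested neighbours, Psme3ip1 and Arl2bp, were at -0.13 ± 0.19 and 0.18 ± 0.21, and Slc12a3 was below the floor on all arrays. The signs of Nup93, Nudt21, Ces1d, Psme3ip1 and Arl2bp turned under at least 1 alternative, so no direction is given for them.

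**Figure D4:**
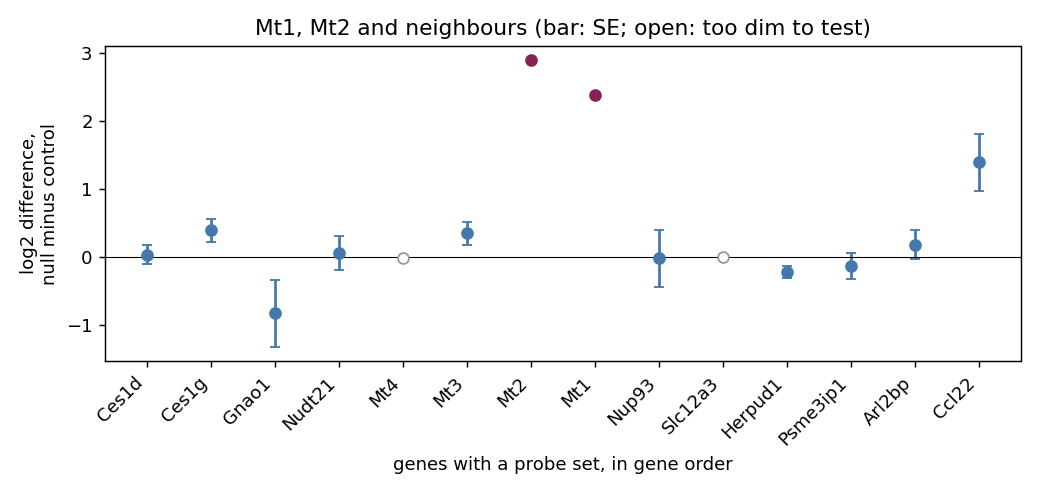
Log2 difference, null minus control, of Mt2, Mt1 and the 6 nearest genes with a probe set on each side, in gene order, with the standard error for tested genes; open points were too dim to test. Mt2 and Mt1 stand at 2.89 and 2.38, while the tested neighbours, each shown by its brightest tested probe set, lie between -0.83 and 1.39.

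Genes that sense and move zinc are the first of the lists described. Of 25 listed genes of zinc sensing and transport, 13 had a probe set and 10 were tested, of which 0 rose and 0 fell in limma over all probe sets (1 higher and 0 lower at an unadjusted p under 0.05). Their median log2 difference was 0.00, against -0.01 over all genes tested. Mtf1, the zinc sensor, had 12.9 and 7.5 in control and 23.0 and 10.5 in null liver, too dim to test. Slc30a1, the zinc exporter of the cell membrane, had 28.8 and 22.4 in control and 30.8 and 13.3 in null liver, with overlap between the groups and a log2 difference of -0.33 ± 0.51. Its sign turned without null array 8 (0.28) and with a floor at the 50th percentile (0.05). Slc39a7, which releases zinc from the endoplasmic reticulum, had 234.5 and 239.6 in control and 329.4 and 344.6 in null liver, the smallest p of this list (0.51 ± 0.12, adjusted p = 0.164). The groups did not overlap there. In 3 other genes of this list both null arrays lay below both control arrays, against 24.0% of all genes tested. These were Slc30a4 (-1.05 ± 0.55, adjusted p = 0.494), Slc39a8 (-0.15 ± 0.20, adjusted p = 0.806) and Slc39a9 (-0.19 ± 0.17, adjusted p = 0.703). Slc39a14, the zinc importer that interleukin 6 induces, has no named probe set here.

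Copper handling and the zinc enzymes of hepatocytes were read next, since metallothioneins bind both metals. Of 16 copper genes 8 were tested, and 0 rose and 0 fell in limma (1 higher and 0 lower unadjusted), with a median of -0.01. Ceruloplasmin (Cp), the copper protein of plasma, was at -0.04 ± 0.07, with 2970 and 2866.1 in control and 2803.9 and 2855.7 in null liver. Of 14 zinc enzymes of hepatocytes 10 were tested, with 0 past the threshold in limma (1 higher and 2 lower unadjusted) and a median of 0.01. Bhmt, which remethylates homocysteine, was at 0.46 ± 0.08 (adjusted p = 0.0922) and at 0.21 on another probe set. The 2 lower genes were Ada at -1.41 ± 0.47 (adjusted p = 0.29) and Adh4 at -0.47 ± 0.15 (adjusted p = 0.265). Other probe sets of Ada and Adh4 were at -0.05 and -0.25.

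Lists for the other known inducers of Mt1 and Mt2 were described in the same way. Of 17 glucocorticoid-responsive genes 14 were tested, and 0 rose and 0 fell in limma (2 higher and 3 lower unadjusted), with a median of -0.15. Igfbp1, a binding protein of insulin-like growth factors, had 62.2 and 164.5 in control and 526.6 and 469.8 in null liver (2.30 ± 0.40, adjusted p = 0.0839). Igfbp1 passed without control array 8 (3.0, adjusted p = 0.00603), whereas without control array 7 its difference was 1.60 (adjusted p = 0.0518). Tdo2, which begins tryptophan breakdown, was at -0.38 ± 0.06 (adjusted p = 0.0759) and passed after quantile normalization (-0.43, adjusted p = 0.0432).

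Of 24 genes of interleukin 6 and STAT3 signalling and the acute phase 22 were tested, and 0 rose and 0 fell in limma (4 higher and 5 lower unadjusted), with a median of 0.08. Lcn2, an iron-scavenging lipocalin, had 15.8 and 12.6 in control and 76.4 and 395.6 in null liver (3.62 ± 0.68, adjusted p = 0.0965). The Lcn2 call was made without null array 7 (4.81, adjusted p = 0.0248), whereas without null array 8 the difference was 2.44 (adjusted p = 0.218), and another Lcn2 probe set was at 0.69 ± 0.59. Itih4, a plasma protein, was at -0.58 ± 0.10, so differences of both signs stood in this list.

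Of 18 genes of the NRF2 and electrophile response 13 were tested, and 1 rose and 0 fell in limma (5 higher and 2 lower unadjusted), with a median of 0.09. The riser was Gstm3, a glutathione transferase, at 1321.9 and 1303.7 in control and 4859.7 and 6620.7 in null liver (2.11 ± 0.14, adjusted p = 0.00437), and another of its probe sets was at 3.53 ± 0.15 (adjusted p = 0.000655). It passed without each array in turn, but not with dim probe sets kept (adjusted p = 0.251), without the intensity trend (0.252) or with the 50th percentile as floor (0.227). Cross-binding of related transferases by its probes was not tested. Haem oxygenase Hmox1, like Mt1 known to respond to oxidative stress, had 340.4 and 244.0 in control and 453.9 and 399.2 in null liver (0.56 ± 0.18, adjusted p = 0.271). The 2 lower genes were Gclc at -0.51 ± 0.11 (adjusted p = 0.136) and Gclm at -0.31 ± 0.13 (adjusted p = 0.395). In both of them the null arrays lay below the control arrays without overlap, so differences of both signs stood in this list too.

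Of 15 superoxide and peroxide enzymes 12 were tested, with 0 past the threshold in limma (3 higher and 1 lower unadjusted) and a median of 0.02. Gpx4, which reduces lipid peroxides, had 257.1 and 285.2 in control and 477.8 and 492.9 in null liver (0.84 ± 0.12, adjusted p = 0.0551), and passed after quantile normalization (0.86, adjusted p = 0.0434). Of 15 hypoxia-responsive genes 12 were tested, with 0 past the threshold (0 higher and 2 lower unadjusted) and a median of -0.08.

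The heat shock chaperones had the highest median of the 10 pathway lists, 0.39. Of 13 such genes 11 were tested, with 0 past the threshold in limma (5 higher and 1 lower unadjusted) and 10 positive differences (90.9%, against 48.5% of all genes). Dnaja1 had 458.9 and 456.4 in control and 652.1 and 661.1 in null liver (0.52 ± 0.10, adjusted p = 0.1). Hsph1 had 136.7 and 159.2 in control and 239 and 235.4 in null liver (0.69 ± 0.15, adjusted p = 0.131). The stress-inducible Hspa1a had 21.6 and 33.4 in control and 71.4 and 47.7 in null liver (1.12 ± 0.34, adjusted p = 0.253). The 1 lower gene was Hspd1 at -0.38 ± 0.11 (adjusted p = 0.223), with another probe set at 0.08. Hspa1b and Dnajb1 were high on null array 7 (429.5 and 293), which stood apart in acinar genes, but at 158 and 71.7 on null array 8. Their control signals were 62 and 147 for Hspa1b and 69 and 93.6 for Dnajb1. Across all genes tested, 6.46% were higher and 6.93% lower at an unadjusted p under 0.05.

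**Figure D5:**
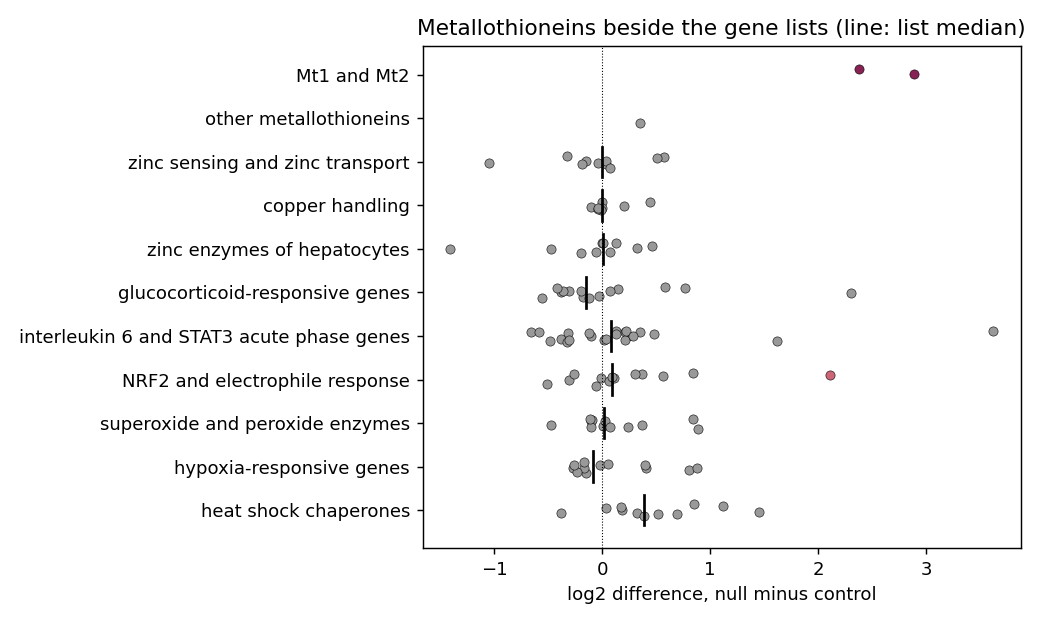
Log2 difference, null minus control, of each tested gene in 10 lists, beside Mt1 and Mt2 in the top row; a line marks a list's median and red marks a gene past the threshold. The medians run from -0.15 to 0.39, and Gstm3 at 2.11 is the red point.

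The 5 genes whose log2 signals, centred on their own mean, lay nearest to the mean pattern of Mt1 and Mt2 over the 4 arrays were Ubd, Gstm3, Lgals1, Jun and Ccl2. Their root mean square distances ran from 0.07 for Ubd to 0.39 for Ccl2 on the log2 scale, against a median of 1.33 over the genes compared and 0.26 for Mt1 and for Mt2 themselves. Mt1 and Mt2 were 0.52 apart, and 13 other genes were nearer to Mt1 and 8 nearer to Mt2 than that. Ubd (2.75 ± 0.45, SE, adjusted p = 0.0759), a ubiquitin-like protein, had 7.4 and 5.8 in control and 46.2 and 51.8 in null liver, with 1 control signal below the floor. Lgals1, a galectin, had 93.5 and 109.6 in control and 396 and 439.6 in null liver (2.04 ± 0.15, adjusted p = 0.00676), and did not pass without null array 8 (adjusted p = 0.063). Jun, an immediate early transcription factor, had 21.8 and 23.5 in control and 84.4 and 97.8 in null liver (2.01 ± 0.23, adjusted p = 0.0296), and did not pass without any 1 of the 4 arrays (adjusted p = 0.0824 to 0.217). The chemokine Ccl2 had 4.4 and 12.3 in control and 40.8 and 47.1 in null liver (2.23 ± 0.47, adjusted p = 0.126). The calls of Lgals1 and Jun, like that of Gstm3, were lost when dim probe sets were kept, when the intensity trend was left out and with a floor at the 50th percentile. In each of these the null arrays lay above the control arrays without overlap, which the likeness measure favours. Of the promoter windows searched for these genes, that of Jun held 1 metal response element core and those of Ubd and Gstm3 held 0.

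Markers of other cells are given beside the pair. Over 9 hepatocyte markers, summed signals were 42688.1 and 43103 in control and 40917.8 and 38420.2 in null liver, and Alb was at 0.02. Of these markers 2 had a positive and 7 a negative difference, with a median of -0.20 and 0 past the threshold in limma (0 higher and 4 lower unadjusted). In 7 of them, Ttr (-0.63), Tdo2 (-0.38) and Fabp1 (-0.21) included, both null arrays lay below both control arrays. Over all genes tested, 24.0% had both null arrays below and 6.93% were lower at an unadjusted p under 0.05. Of 13 Kupffer cell and macrophage markers 2 rose in limma (Mpeg1 and Mmp12), against 0.309% of all genes tested (5 higher and 0 lower unadjusted). A positive difference was found in 12 of them, against 48.5% of all genes tested. Their sums were 2436.2 to 2459.3 in control and 3113.1 to 3431.3 in null liver. The markers Clec4f (-0.01), Csf1r (0.11) and Adgre1 (0.14) differed little. Mpeg1 was at 1.38 ± 0.14 (adjusted p = 0.021), and Mmp12, below the floor on both control arrays, at 3.37 ± 0.43 (adjusted p = 0.0377). Neither passed when any 1 of the 4 arrays was left out. Mmp12 also did not pass in limma with a floor at 1 (adjusted p = 0.0676), and its other probe set was at 2.58 (adjusted p = 0.102). Of 8 stellate cell and fibroblast markers 0 passed (3 higher and 0 lower unadjusted), with sums of 1162.1 to 1219.3 and 1486.8 to 1760.4. Differences were positive in 7 of the 8 and negative in 1. Dcn, the brightest, made up most of the sums and was at 0.39 ± 0.10 (adjusted p = 0.204). Col1a1 was at 1.81 ± 0.36 (adjusted p = 0.101), with another probe set at 1.70, and Col3a1 was at 1.31 ± 0.34 (adjusted p = 0.193). Sums of endothelial markers were 884 to 886 in control and 997 to 1069.1 in null liver. Most of these sums was Eng, at 618.5 and 629.1 in control and 762.7 and 704.9 in null liver. Of 6 endothelial markers tested, 3 had a positive and 3 a negative difference, with 0 past the threshold in limma (0 higher and 0 lower unadjusted). Sums of neutrophil markers were 85.6 to 95.0 in control and 114 to 165 in null liver, and those of red cell markers 7232.3 to 7631.7 and 5810.7 to 6117.3. None of 4 bile duct markers was bright enough to test, with sums of 17.3 to 50.2, and Epcam lay below the floor on all arrays. The part of these cells in the rise of Mt1 and Mt2 was not tested.

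Null array 7 stood apart in pancreatic acinar genes, which liver should lack. The 7 measured markers summed to 3031.8 there, against 274 and 388 on the control arrays and 241 on null array 8. Prss2, Ctrb1 and Cel, digestive enzymes, reached 521.7, 1307.3 and 327.4 on that array and 4.7, 78.7 and 41.7 on null array 8. Mt1 and Mt2 were as high on null array 8 as on null array 7, and without null array 7 their log2 differences were 2.38 and 2.99. Without null array 8 they were 2.37 and 2.79.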

How the data were processed

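Liver RNA was measured on 4 arrays, 2 per genotype. Per the labels, the authors obtained the deposited signal intensity of each probe set in Affymetrix GCOS from its matched and mismatched probes, with each chip brought to a common total fluorescence; no version or target is stated there. Of 12488 probe sets 66 were manufacturer's controls and were left out; of the other 12422, 10833 carried 1 gene symbol, 396 several and 1193 none. Symbols came from the platform's annotation, updated by gene identifier to the GRCm38.p6 gene table.

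The deposited scaling was kept. Any signal below 7.1 (the 25th percentile over all arrays) was set to that floor before taking log2, and the 7241 probe sets whose mean exceeded 16.8 (the 40th percentile), on the log2 scale, entered the test. The model held genotype alone and was fitted by lmFit of limma 3.58.1 under R 4.3.3, followed by eBayes with a trend on intensity. Two-sided p-values had a Benjamini-Hochberg adjustment across those 7241, with 0.05 as the threshold. This gave 22 higher (0.304%) and 6 lower (0.0829%) probe sets. A gene was represented by its brightest tested probe set. The fit was also run on values simulated from its own model of the spread. Those values had no floor and no outlying array, so how calls behave under these was not tested by it. Over tested probe sets the Pearson correlation of log2 signals was 0.968 between control arrays, 0.955 between null arrays and 0.948 to 0.953 between genotypes. Same-numbered arrays did not deviate together (r = -0.0298 across probe sets, which are not replicates).

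Members, lists and tests were chosen with earlier results of these data known. Named genes were Mt1 and Mt2, set metal and stress genes, up to 4 members of smallest p and any called member of each of 10 pathway lists, up to 3 members of largest difference of each of 8 marker lists, 6 neighbours on each side and the 5 genes of most like pattern. Protein sequences were not used here.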

Additional observations from a re-analysis of the deposited data

How the results depend on the processing

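Mt1 and Mt2 kept their direction under all 8 alternatives run for them (3 settings of floor or normalization, the replicate block and 4 left-out arrays). Only quantile normalization could have turned it. The alternative floors, 1 and 27.1, lay below every signal of the pair, and the block leaves a balanced difference unchanged. Leaving out 1 array cannot turn a difference between groups without overlap, and moves it by less than the SD of that group. Leaving out 1 array gave 1.99 to 2.77 for Mt1 and 2.65 to 3.13 for Mt2 on the log2 scale, and quantile normalization gave 2.39 and 2.88. Counts of called probe sets depended on the settings. Higher and lower probe sets numbered 0 and 0 in limma when the floor was the 50th percentile (459 and 496 at an unadjusted p under 0.05), without the filter (566 and 642) and without an intensity trend (407 and 340), and the cause was not tested. Quantile normalization gave 30 and 12. With 1 array left out, higher probe sets numbered 10 to 13 and lower ones 0 to 4. With the replicate number as a replicate block there were 37 higher and 15 lower, although the labels do not say that the numbers pair the arrays, and the differences of Mt1 and Mt2 stayed at 2.38 and 2.89. Under this block Igfbp1, Lcn2, Col1a1 and Lyz2 passed (adjusted p = 0.0371, 0.0479, 0.0357 and 0.0479). In the gene lists, the glucocorticoid and the interleukin 6 lists each had 1 higher gene under the block and 0 to 1 with an array left out. After quantile normalization the glucocorticoid list had 1 lower gene, the superoxide and peroxide list 1 higher and the NRF2 list 2 higher. The NRF2 list had 0 higher without the filter, without a trend and with the 50th percentile as floor.

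Signs turned for 10 genes, none of which passed with all 4 arrays under the reported settings. When the floor was the 50th percentile, Nup93 was at 0.06, Pecam1 at 0.11 and Slc30a1 at 0.05, and after quantile normalization Nudt21 was at -0.00234. With 1 array left out the values ran from -0.10 to 0.45 (Arl2bp), -0.16 to 0.21 (Ces1d, also -0.08), -0.38 to 0.35 (Nup93, also 0.02), -1.72 to 0.49 (Pecam1), -0.19 to 6.0 (Prss2), -0.31 to 0.05 (Psme3ip1), -0.93 to 0.28 (Slc30a1), -0.07 to 1.20 (Slc30a5) and -0.33 to 0.13 (Sod1). Without null array 8 the acinar genes Cel, Ctrb1 and Prss2 passed (adjusted p = 0.0214, 0.00557 and 0.0153). Signals near the floor limit Mtf1, Mt4 and other dim genes.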
